A study of Mus musculus with 12 samples.

Results

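Genes around the transcription factor CREM, 8 in all, were followed across 12 mouse testis libraries: Crem itself, its coactivator gene Fhl5 (the protein ACT), the related gene Fhl4, the factor genes Creb1, Atf1 and Creb3l4, and the kinase genes Camk4 and Prkaca. They were chosen by symbol, and all 8 were found among the 21429 genes of the deposited tables and passed the filter on low counts in every comparison. RNA was sequenced from isolated pachytene spermatocytes (PS), which are in meiotic prophase, and from round spermatids (RS), the haploid cells that follow. Controls were Hdac3fl/+, with a genotype label of wild type and no cre named. Knockout (KO) mice were Stra8-cre/Hdac3fl/-, which combines a floxed and a null allele of the histone deacetylase gene Hdac3 with a cre under the promoter of Stra8, a gene of germ cells entering meiosis. Each of the 4 groups had 3 libraries, described by the submitters as biological triplicates. The sources used here give no ages and do not say whether animals were pooled.

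CREM is a basic leucine zipper factor that binds cAMP response elements (CRE). Spermatids make activator forms of it that switch on protamine, transition protein and sperm tail genes, and mice without Crem stop spermatogenesis at the round spermatid stage. ACT is a LIM-only protein of the testis that binds CREM and activates transcription without the phosphorylation that recruits CBP. The kinesin KIF17 moves ACT out of the nucleus later in spermatid development.

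Promoter sequences of 3 of these genes and of Ldhc, the sperm lactate dehydrogenase gene reported as a CREM target, are shown because CREM acts through a DNA element whose core can be read in them. Each window runs from 250 bases before to 50 after a RefSeq transcript start (GRCm38.p6), written 5′ to 3′ on the strand of the gene, with the CRE core TGACG, or its complement CGTCA, in capitals. Fhl5 (chr4:25242803-25243102, minus strand) and Creb3l4 (chr3:90242501-90242800, minus strand) were lower in the KO libraries of both cell types. Atf1 (chr15:100227609-100227908, plus strand) was the member whose KO libraries in PS lay above the controls, and Ldhc (chr7:46861013-46861312, plus strand) was a target lower in KO RS.
Fhl5: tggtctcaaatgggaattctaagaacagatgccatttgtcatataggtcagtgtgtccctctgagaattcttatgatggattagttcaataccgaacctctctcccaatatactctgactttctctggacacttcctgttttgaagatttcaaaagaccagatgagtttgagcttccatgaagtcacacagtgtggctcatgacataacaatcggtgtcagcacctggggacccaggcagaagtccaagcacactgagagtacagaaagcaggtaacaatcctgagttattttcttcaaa
Creb3l4: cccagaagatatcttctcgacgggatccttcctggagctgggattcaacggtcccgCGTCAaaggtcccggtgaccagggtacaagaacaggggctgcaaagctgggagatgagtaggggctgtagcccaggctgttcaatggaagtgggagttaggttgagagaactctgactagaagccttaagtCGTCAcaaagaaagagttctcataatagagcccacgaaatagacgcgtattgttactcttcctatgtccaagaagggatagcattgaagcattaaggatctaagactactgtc
Atf1: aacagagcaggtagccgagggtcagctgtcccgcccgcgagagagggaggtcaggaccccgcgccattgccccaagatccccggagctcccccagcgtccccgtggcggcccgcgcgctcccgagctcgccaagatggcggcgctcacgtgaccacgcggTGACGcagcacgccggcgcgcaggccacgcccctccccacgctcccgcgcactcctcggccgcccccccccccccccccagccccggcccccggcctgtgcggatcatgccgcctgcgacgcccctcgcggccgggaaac
Ldhc: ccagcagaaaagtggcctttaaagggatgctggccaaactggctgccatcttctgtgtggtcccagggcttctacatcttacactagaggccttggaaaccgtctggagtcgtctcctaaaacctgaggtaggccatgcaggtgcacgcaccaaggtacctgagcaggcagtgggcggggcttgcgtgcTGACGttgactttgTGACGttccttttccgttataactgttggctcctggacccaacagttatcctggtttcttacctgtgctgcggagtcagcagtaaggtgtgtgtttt
The Fhl5 window held no CRE core. That of Creb3l4 held 2, with first bases at positions -194 and -63 from the start, that of Atf1 held 1 at -90, and that of Ldhc held 2 at -61 and -47. Fhl5, Creb3l4 and Ldhc also had windows at other transcript starts, not shown. Those of Creb3l4 held 0 cores (chr3:90243463-90243762) and 1 core (chr3:90243094-90243393). That of Ldhc (chr7:46861237-46861536) held 0, and so did that of Fhl5 (chr4:25242217-25242516). Of the 6 members with a window in the table, 3 genes had the core in at least 1 window, and of 10 genes reported as CREM targets 4 had it, beside 31.8% of 12786 genes tested in a KO comparison. The full palindromic element TGACGTCA, which contains the core on both strands, was in 0 of these members and targets and in 3.29% of the tested genes. A match describes letters in a window and not a bound site. Only these exact letters were searched for, so a window without a match may still hold a variant of the element.

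Gene counts summed to 11205732 to 17467583 per library. Levels are given as CPM, gene counts scaled to a common library total after TMM correction for composition. Fold changes are log2 values of KO against control from edgeR's quasi-likelihood test, called at a Benjamini-Hochberg adjusted p under 0.05. Hdac3 was at 53.0 to 82.5 CPM in control PS and 17.8 to 24.8 in KO PS, and at 42.3 to 52.9 in control RS and 13.5 to 17.1 in KO RS. The summed level of 12 pachytene markers was 3822 to 4137 CPM in control PS and 1544 to 1905 in control RS, and that of 14 spermatid markers 1177 to 1352 and 5436 to 6988. Sertoli cell markers summed to 458 to 1107 CPM in control PS and 40.9 to 71.9 in control RS. In the same order, Leydig cell markers summed to 398 to 766 and 18.0 to 60.8 CPM. Peritubular markers summed to 73.0 to 164 and 282 to 437 CPM, with 1 of 8 called higher in RS (edgeR). Macrophage markers summed to 18.8 to 43.3 and 58.7 to 69.4 CPM. Libraries of both cell types thus also held somatic transcripts. None of these markers was at 0 in any group.

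Most of the axis was more abundant in spermatids. In controls 5 of the 8 genes were higher in RS than in PS (27.8% of 16581 genes tested were higher) and 1 was lower (30.9% were lower; 58.8% were called either way). The libraries of the cell types did not overlap for these 6 (30.1% of all genes higher and 33.7% lower). In KO cells 3 were higher (30.5% of all genes) and 2 lower (27.6%; 58.1% either way), again without overlap (33.1% and 31.4%). Library size scaling moved the median of all genes by -0.14 in the former comparison and 0.12 in the latter. Per kilobase of annotated exon, the level in control RS was highest for Fhl4 at 1022 ± 111 CPM per kb (SD, n = 3). Creb3l4 followed at 264 ± 54.2 and Fhl5 at 162 ± 40.5 CPM per kb. Prkaca was at 64.9 ± 6.37 and Crem at 57.2 ± 8.41 CPM per kb, with overlapping SD ranges. Atf1 (41.9 ± 1.27), Camk4 (21.5 ± 1.75) and Creb1 (1.05 ± 0.0919) had the lowest levels per kb. The length used is the union of exons over all annotated transcripts, so this order depends on the annotation. In mean CPM without it, Crem (337) stood above Fhl5 (190) and Prkaca (161), with the order of the other members unchanged. Gene counts do not separate isoforms, so activator and repressor forms of CREM are summed, as are CaMKIV and calspermin, both made from Camk4.

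**Figure D1:**
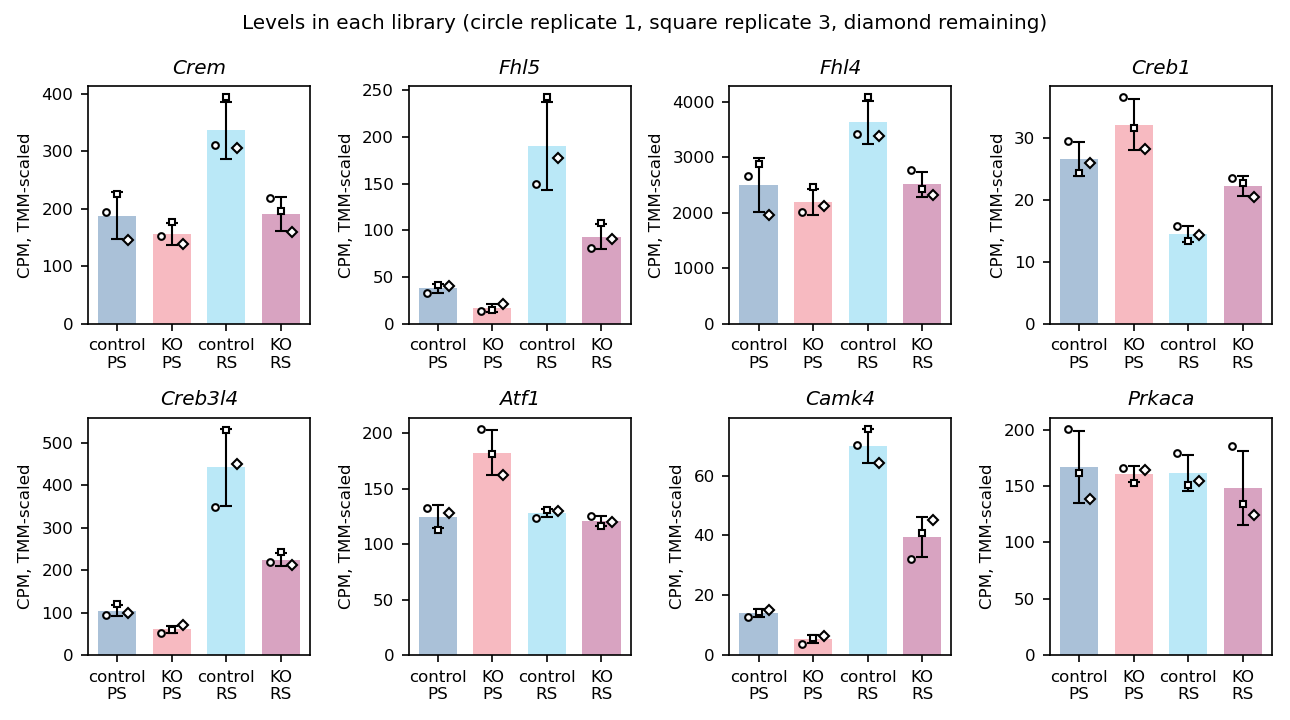
Level of each of the 8 genes in the 12 libraries, in CPM after TMM scaling on axes that start at 0. Bars are group means, error bars are SD (n = 3) and symbols are libraries. Fhl5, Creb3l4 and Camk4 stand highest in control RS, with KO libraries below the controls in both cell types, while Creb1 is lowest in control RS.

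Crem (chromosome 18, 3266048 to 3337748, minus strand, GRCm38) was lower in KO round spermatids. Control RS libraries (replicate 1, replicate 3 and the remaining replicate, in this order throughout) read 311, 394 and 306 CPM and KO RS libraries 218, 196 and 159 CPM. Every KO library lay below every control. The log2 fold change was -0.81 (SE 0.190, adjusted p = 0.0129, edgeR). Without the remaining KO library it was -0.70 and was not called (adjusted p = 0.0658, edgeR). In PS the level was 194, 225 and 145 CPM in controls and 153, 177 and 139 CPM in KO, groups that overlapped (log2 fold change -0.22, SE 0.188, adjusted p = 0.546, edgeR). From PS to RS, Crem was higher in controls by a log2 difference of 0.84 (SE 0.190, adjusted p = 0.00160, edgeR). The same step in KO cells was 0.29 (SE 0.189, adjusted p = 0.203, edgeR). It was called with library size only (0.41, adjusted p = 0.0332) and with the replicate number as a block (adjusted p = 0.0361). Between libraries of the same number, the PS level was 47.3 to 62.5% of the RS level in controls and 70.3 to 90.0% in KO. The KO effects of RS and PS differed by -0.55 (SE 0.268, adjusted p = 0.380, edgeR), and the adjusted p was 0.0434 with the replicate block.

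Fhl5 (chromosome 4, 25199908 to 25242876, minus strand), the gene of ACT, was lower in the KO libraries of both cell types. PS controls read 32.5, 40.9 and 40.6 CPM, against 13.4, 14.8 and 21.0 CPM in KO. The highest KO library was below the lowest control (log2 fold change -1.18, SE 0.222, adjusted p = 0.00951, edgeR). RS controls read 150.1, 243 and 178 CPM, against 81.3, 108 and 90.2 CPM in KO, also with no overlap (-1.02, SE 0.216, adjusted p = 0.00941, edgeR). Both falls were called without any 1 library of their cell type, with adjusted p of up to 0.0481 in PS and 0.0489 in RS (edgeR). The RS level was 5.01 times that of PS in controls (log2 2.32, SE 0.220, adjusted p = 1.08e-06, edgeR) and 5.70 times in KO (log2 2.51, SE 0.224, adjusted p = 6.65e-07, edgeR). The difference between the KO effects of RS and PS was not called (0.19, SE 0.299, adjusted p = 0.798, edgeR).

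Fhl4 (chromosome 10, 85096287 to 85102495, minus strand), another LIM-only gene of the testis, had the highest counts of the 8. In RS it stood at 3430.4, 4085 and 3379 CPM in controls and 2769.6, 2438 and 2324 CPM in KO. The groups were separate, and the fall was the smallest of those called (log2 fold change -0.52, SE 0.177, adjusted p = 0.0471, edgeR). The call ended on leaving out any library but KO replicate 1, with adjusted p of 0.0801 to 0.159, with library size only (-0.26, adjusted p = 0.162, edgeR) and with no filter on low counts (adjusted p = 0.0564, edgeR). In PS the level was 2672, 2889 and 1954 CPM in controls and 2013, 2462 and 2123 CPM in KO, which overlapped (-0.15, SE 0.185, adjusted p = 0.704, edgeR). Control RS stood above control PS (log2 0.54, SE 0.173, adjusted p = 0.0156, edgeR), while the step in KO was 0.19 (SE 0.173, adjusted p = 0.356, edgeR).

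The relatives of CREM differed in direction. Creb3l4 (chromosome 3, 90237500 to 90243512, minus strand), a membrane-anchored factor of spermatids also called Tisp40, followed Fhl5. PS libraries read 95.2, 119.8 and 99.1 CPM in controls and 53.1, 59.7 and 70.1 CPM in KO, with no overlap (log2 fold change -0.74, SE 0.173, adjusted p = 0.0244, edgeR). That call ended without KO replicate 1 (adjusted p = 0.109), KO replicate 3 (0.0954) or control replicate 3 (0.127, edgeR). RS libraries read 348, 529.8 and 449 CPM in controls and 219.6, 242 and 212 CPM in KO, also separate (-0.97, SE 0.194, adjusted p = 0.00788, edgeR). Control RS stood 4.23 times above control PS (log2 2.08, SE 0.183, adjusted p = 6.39e-07, edgeR).

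Creb1 (chromosome 1, 64532645 to 64604548, plus strand), the gene of CREB, was the member that rose in KO spermatids. Its RS level was 15.8, 13.3 and 14.3 CPM in controls and 23.5, 22.8 and 20.5 CPM in KO, with every KO library above every control (log2 fold change 0.63, SE 0.182, adjusted p = 0.0275, edgeR). The call ended without the remaining KO library, the remaining control, KO replicate 3 or control replicate 3 (adjusted p = 0.0733 to 0.0899, edgeR). In PS it was at 29.6, 24.4 and 26.0 CPM in controls and 36.7, 31.7 and 28.3 CPM in KO, which overlapped (0.32, SE 0.195, adjusted p = 0.394, edgeR). Creb1 was lower in RS than in PS, by a log2 difference of -0.88 (SE 0.169, adjusted p = 0.000461, edgeR) in controls and -0.53 (SE 0.166, adjusted p = 0.0134, edgeR) in KO. The latter call ended without KO PS replicate 1 (0.0557) or the remaining KO RS library (0.0571).

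Atf1 (chromosome 15, 100227819 to 100261244, plus strand), the third CREB-type activator, separated the PS groups. The level there was 133, 113 and 129 CPM in controls and 204, 181 and 163 CPM in KO, with no overlap. On the log2 scale KO differed from control by 0.59 (SE 0.166, adjusted p = 0.0551, edgeR), which was not called. It was called with the replicate block (adjusted p = 0.00243), with DESeq2 (0.0285) and without the remaining control (0.0498). In RS Atf1 was at 124, 131 and 130.1 CPM in controls and 126, 117 and 120.4 CPM in KO, which overlapped (-0.08, SE 0.154, adjusted p = 0.719, edgeR, and 0.19 with library size only, not called). Between RS and PS its log2 difference was 0.04 (SE 0.138, adjusted p = 0.818, edgeR) in controls, or -0.10 with library size only, and -0.59 (SE 0.139, adjusted p = 0.00211, edgeR) in KO. The KO effects of RS and PS differed by -0.63 (SE 0.196, adjusted p = 0.217, edgeR), and the adjusted p was 0.0215 with the replicate block.

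Of the kinases that phosphorylate CREB family factors, Camk4 fell and Prkaca was not called. Camk4 (chromosome 18, 32934931 to 33191228, plus strand), the gene of calcium and calmodulin dependent kinase IV, was at 12.6, 14.2 and 15.2 CPM in control PS and 3.76, 5.59 and 6.50 CPM in KO PS. This was the largest fall among the 8, to 0.388 of the control level (log2 fold change -1.37, SE 0.275, adjusted p = 0.0122, edgeR, and 0.0640 without KO replicate 1). In RS it read 70.2, 75.5 and 64.1 CPM in controls and 32.2, 40.6 and 45.2 CPM in KO, again separate (-0.82, SE 0.181, adjusted p = 0.0106, edgeR). With library size only the RS value was -0.55 (adjusted p = 0.0535, edgeR) and was not called. The log2 step from PS to RS was 2.32 (SE 0.205, adjusted p = 6.64e-07, edgeR) in controls and 2.90 (SE 0.215, adjusted p = 1.82e-07, edgeR) in KO. These steps were not shown to differ (0.58, SE 0.284, adjusted p = 0.388, edgeR).

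Prkaca (chromosome 8, 83972993 to 83996443, plus strand), the gene of a catalytic subunit of protein kinase A, was at 201, 161 and 138 CPM in control PS and 166, 153 and 164 CPM in KO PS. In RS its controls read 179.7, 151 and 154 CPM and its KO libraries 186, 134 and 125 CPM. The groups overlapped in both cell types. The log2 fold changes were -0.01 (SE 0.175, adjusted p = 0.981, edgeR) in PS and -0.12 (SE 0.195, adjusted p = 0.662, edgeR) in RS, the latter 0.13 with library size only.

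**Figure D2:**
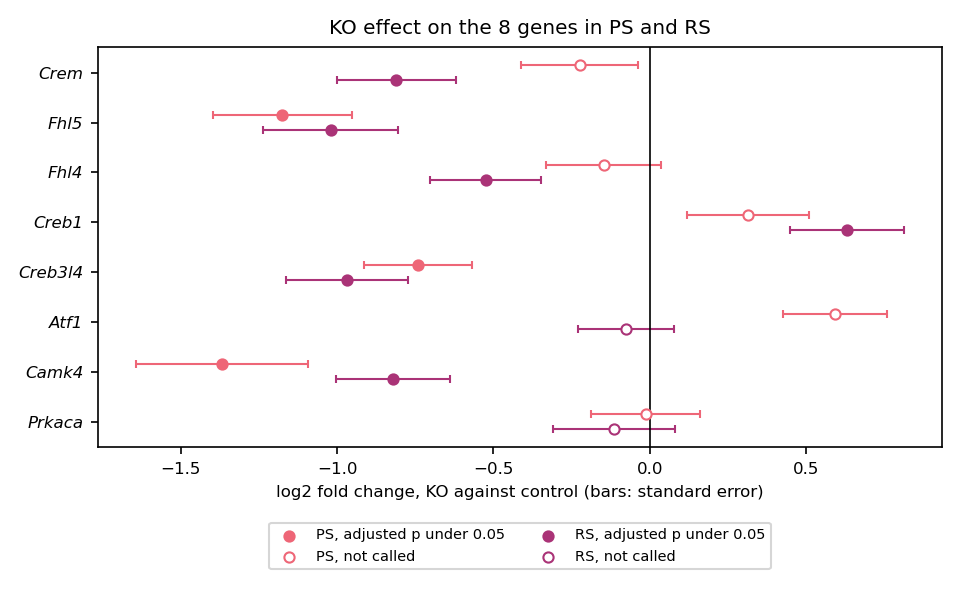
Log2 fold change of KO against control for the 8 genes, with standard errors as bars, in PS and RS. Filled symbols are called at an adjusted p under 0.05 (edgeR). Fhl5, Creb3l4 and Camk4 lie left of 0 and filled in both cell types, Crem and Fhl4 are filled in RS, and Creb1 is filled to the right in RS.

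Counted over the 8, 3 fell in KO PS (4.5% of all genes tested fell) and 0 rose (0.91% rose; 5.41% were called either way), with a median log2 fold change of -0.19 beside 0.06 over all 15272 genes. At an unadjusted p under 0.05, 1 was higher, Atf1, called by DESeq2 and not by voom. In KO RS 5 fell (12.4% of all genes) and 1 rose (18.7%; 31% either way), with a median of -0.67 beside 0.02 over 15934 genes. Without KO replicate 1, 1 member fell in PS, Fhl5, and without the remaining KO library 3 fell in RS. With the 2 libraries per group that match a sample title, 0 members were called in RS, with 4 lower and 1 higher at an unadjusted p under 0.05 (edgeR). With library size only 3 fell in RS. That scaling moved the median of all genes in RS up by 0.26, with 4236 genes higher and 779 lower in place of 2974 and 1968. Libraries did not overlap for 4 members in PS, 3 lower (15.5% of all genes) and 1 higher (8.63%), and for 6 in RS, 5 lower (21.8%) and 1 higher (25.7%). The difference between the KO effects of RS and PS was called for 0 of the 8 with edgeR, DESeq2 or voom (0.0181% of all genes, edgeR), with 1 member at an unadjusted p under 0.05 (edgeR), and for 2, Crem and Atf1, with the replicate block. That block called 1285 of all 16581 genes, 168 of them lower, the direction of Crem and Atf1. In the authors' deposited table the log2 fold changes of Crem, Fhl5 and Camk4 in RS were -0.94, -1.15 and -0.96. The members labelled down there were those that fell here, in PS and in RS. Creb1 in RS, called higher here, was at 0.49 with an authors' adjusted p of 0.0340, and was labelled maintain. Atf1 in PS, not called here, was at 0.52 with an authors' adjusted p of 0.00772, and was also labelled maintain. The authors' labels thus rest on more than an adjusted p under 0.05, the threshold used here.

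The 3 members that fell in KO PS were those with the largest step from PS to RS. Spermatid markers moved with them: 9 of 14 were lower in KO PS (4.5% of all genes were) and 0 higher. Their summed level was 1177 to 1352 CPM in controls and 593 to 817 CPM in KO, with none at 0. Without KO replicate 1 or KO replicate 3, 4 of the markers were lower. Peritubular markers were also lower in KO PS, 3 of 8 by the test and with a sum of 73.0 to 164 CPM in controls and 33.7 to 72.0 CPM in KO (1 of 8 when scaled by library size alone, and also when KO replicate 3 was left out). The Sertoli marker sum was 458 to 1107 CPM in controls and 776 to 1518 CPM in KO PS, with 0 of 12 called by edgeR, DESeq2 or voom (edgeR, 4 higher before adjustment) and 9 higher with the replicate block. The block called 1623 of all 15272 genes higher in PS. The Leydig marker sum was 398 to 766 CPM in controls and 433 to 834 CPM in KO PS. Of 8 Leydig markers edgeR called 0, and 3 were higher with the replicate block. None of these markers was at 0. Library by library, the spermatid marker sum in PS was 19.3 to 23.5% of that in RS in controls and 16.6 to 19.3% in KO. For Fhl5 this share was 16.9 to 22.8% in controls and 13.7 to 23.3% in KO. For Camk4 it was 17.9 to 23.7% and 11.7 to 14.4%, and for Creb3l4 22.1 to 27.4% and 24.2 to 33.0%. The part of these cell types' RNA in the PS results was not tested, and in bulk samples fewer cells of a type and less RNA per cell cannot be told apart. In RS 8 of the 14 spermatid markers were lower in KO (12.4% of all genes were), and 4 without the remaining KO library. Their sum was 5436 to 6988 CPM in controls and 3303 to 4226 CPM in KO. The part of this shift in the RS results was not tested either.

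Of 12 genes reported to depend on CREM or to be bound by it, 9 fell in KO PS (4.5% of all genes) and 0 rose, and 3 fell in KO RS (12.4% of all genes) and 0 rose. Their median log2 fold changes were -1.52 and -0.49, the latter -0.19 with library size only. DESeq2 and voom called none higher, and none was higher at an unadjusted p under 0.05. In PS the largest fall was that of the protamine gene Prm2 (-1.89, SE 0.320), at 445, 889 and 1092 CPM in controls and 129, 216 and 292 in KO. Prm1 (-1.75, SE 0.429), the mitochondrial capsule gene Smcp (-1.72, SE 0.327), the heat shock gene Hspa1l (-1.65, SE 0.248), the outer dense fibre gene Odf1 (-1.60, SE 0.237) and the transition protein gene Tnp2 (-1.51, SE 0.353) followed. Gapdhs, a sperm glycolytic enzyme gene, was at -1.28 (SE 0.258), Catsper1, a subunit of the sperm calcium channel, at -1.04 (SE 0.201) and Ace, the angiotensin converting enzyme gene, at -0.64 (SE 0.173). Of these 9 genes the libraries of the groups overlapped for Prm1. The adjusted p of the 9 was 0.00558 to 0.0478 (edgeR). Tnp1 was at -1.53 (SE 1.08, adjusted p = 0.461, edgeR), with 16.7, 37.9 and 421 CPM in control and 5.37, 11.5 and 144 in KO PS, the remaining libraries far above the others. With the replicate block it was called, at -1.58 (adjusted p = 1.25e-05). Ldhc (-0.10, SE 0.161) and the sterol demethylase gene Cyp51 (-0.20, SE 0.191) were not called in PS. Of the 12, 4 fell in PS without KO replicate 3, and 6 without KO replicate 1, without the remaining control or with library size only.

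In RS the CREM targets that fell were Catsper1, Cyp51 and Ldhc. Catsper1 was at 230.3, 206 and 250.4 CPM in controls and 134, 98.0 and 113 in KO (log2 fold change -0.98, SE 0.182, adjusted p = 0.00611, edgeR). Cyp51 was at 84.5, 92.6 and 92.1 CPM in controls and 51.9, 52.5 and 54.8 in KO (-0.75, SE 0.154, adjusted p = 0.00870, edgeR). Ldhc, whose promoter is printed above, was at 3149, 4492 and 4088 CPM in controls and 2586, 2389.7 and 2357 in KO (-0.67, SE 0.190, adjusted p = 0.0258, edgeR, and 0.0758 with library size only). Its call also ended without KO replicate 3, the remaining KO library, control replicate 3 or the remaining control (adjusted p = 0.0715 to 0.0948). In these 3 genes every KO library lay below every control. The protamine and transition protein genes were not called there, with log2 fold changes of -0.46 (SE 0.534) for Prm1, -0.30 (SE 0.436) for Prm2, -0.45 (SE 0.392) for Tnp2 and -0.01 (SE 1.07) for Tnp1. Those of Prm2 and Tnp1 were 0.02 and 0.27 with library size only, and Tnp1 was at -0.59 and called with the replicate block (adjusted p = 0.0315). Control RS libraries of Prm1 were far apart, at 1315, 4939 and 1891 CPM. Odf1 (-0.60), Gapdhs (-0.53), Smcp (-0.53), Hspa1l (-0.43) and Ace (-0.39) were not called either. With the replicate block 9 targets fell in RS, where the block called 4154 of all 15934 genes lower. For 7 of the 12 the KO effect of RS was then called above that of PS, as for 1117 of all 16581 genes. Without the block this was so for 0 of the 12 by edgeR (4 higher and 2 lower before adjustment at p under 0.05), DESeq2 or voom.

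**Figure D3:**
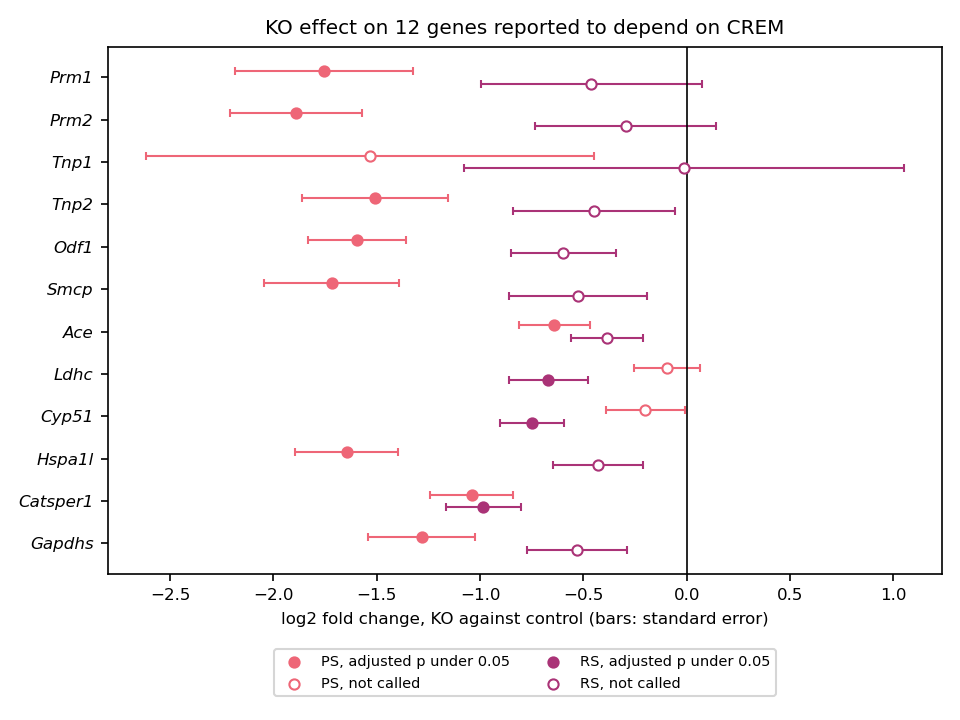
Log2 fold change of KO against control, with standard errors as bars, for 12 genes reported to depend on CREM, in PS and RS. Filled symbols are called (edgeR, adjusted p under 0.05). In PS 9 genes are filled left of 0, while in RS Catsper1, Cyp51 and Ldhc are the filled ones.

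Of 14 further CREB and ATF factors 12 were tested, and 6 rose (18.7% of all genes) and 0 fell in KO RS (median 0.75), while in PS edgeR, DESeq2 and voom called 0 (edgeR, 2 higher before adjustment). The 6 were Atf6b, a sensor of the unfolded protein response (0.92, SE 0.185), Atf4, the factor of the integrated stress response (0.86, SE 0.220), Atf7 (0.77, SE 0.211), Crebl2 (0.84, SE 0.253), Creb3l2 (1.10, SE 0.335) and the stress-induced Atf3 (0.86, SE 0.289), at adjusted p of 0.00806 to 0.0460 (edgeR). Atf6b was at 18.4, 16.9 and 22.1 CPM in control RS and 40.4, 32.7 and 34.6 in KO RS. The call of Atf3 ended with RLE size factors (adjusted p = 0.0506) and with voom (0.0588), and on leaving out any library but KO replicate 1 (0.0731 to 0.192). Without the remaining KO library 1 of the family rose, without KO replicate 3 or control replicate 3 it was 2, and without the remaining control 3.

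Of 9 other FHL proteins, coactivators and Kif17, 4 rose in RS (18.7% of all genes) and 0 fell by edgeR or voom. DESeq2 called the same number higher and Kif17 lower (-0.53, adjusted p = 0.0447). Those that rose were Crtc1 (0.96, SE 0.199) and Crtc2 (0.89, SE 0.199), coactivators of CREB, and the LIM-only genes Fhl1 (1.54, SE 0.410) and Fhl3 (1.58, SE 0.426), at adjusted p of 0.00866 to 0.0211 (edgeR). Without the remaining KO library 1 rose. With the replicate block, which called 4582 of all 15934 genes higher and 4154 lower, 7 rose and 1 fell. Markers of other cells rose beside these genes in KO RS. Of 8 macrophage markers, of which Mrc1 and Lyz2 were the most abundant, 7 rose, and 4 rose without the remaining KO library. Their sum was 58.7 to 69.4 CPM in controls and 124 to 177 CPM in KO. Of 10 spermatogonial markers 6 rose (3 without the remaining KO library), while their sum was 858 to 1121 CPM in controls and 830 to 994 CPM in KO. Of 9 Sertoli markers tested and of 8 Leydig markers 2 each rose, and 0 of either by voom or without KO replicate 3, the remaining KO library or control replicate 3. With the replicate block 6 Sertoli and 4 Leydig markers rose. The Sertoli marker sum in RS was 40.9 to 71.9 CPM in controls and 51.3 to 274 CPM in KO. The Leydig marker sum was 18.0 to 60.8 CPM in controls and 23.0 to 155 CPM in KO. None of these markers was at 0 in a group, and their part in the rises was not tested. In PS 2 of the 9 FHL, coactivator and Kif17 genes fell (4.5% of all genes) and 0 rose. Kif17, whose kinesin carries ACT, fell there from 147, 121 and 137 CPM in controls to 86.6, 64.8 and 92.9 in KO (-0.69, SE 0.180, adjusted p = 0.0423, edgeR). Fhl2 fell from counts of 13, 13 and 16 to 0, 3 and 1 (adjusted p = 0.0156, edgeR). The call of Fhl2 ended without KO replicate 1 (0.0733), and that of Kif17 without any replicate 1 or 3 (0.0675 to 0.176).

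Among genes of cAMP and calcium signalling upstream of CREM, some were called lower and few higher in RS, where 12.4% of all genes fell and 18.7% rose. Of 9 further protein kinase A subunits and inhibitors, 2 fell in KO PS (4.5% of all genes) and 0 rose. They were the regulatory subunit gene Prkar2a (-1.34, SE 0.257, adjusted p = 0.0105, edgeR) and the inhibitor gene Pkib (-1.36, SE 0.329, adjusted p = 0.0296, edgeR). The call of Pkib ended without KO replicate 1 (0.102), KO replicate 3 (0.0553) or control replicate 3 (0.140, log2 fold change -0.96) and with library size only (0.0658). In RS the catalytic subunit gene Prkacb rose, from 6.33, 5.89 and 5.86 CPM to 14.4, 16.6 and 18.5 CPM (1.46, SE 0.211, adjusted p = 0.00328, edgeR). The regulatory subunit gene Prkar1b (-0.94, SE 0.236, adjusted p = 0.0163, edgeR) and the inhibitor gene Pkig (-0.62, SE 0.170, adjusted p = 0.0222, edgeR) fell there. Neither was called without KO replicate 3 or the remaining KO library, nor Pkig without control replicate 3, without the remaining control or with library size only.

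Of 25 adenylyl cyclase and phosphodiesterase genes, Pde1a, a calmodulin-dependent phosphodiesterase, fell in both cell types, with log2 fold changes of -1.09 (SE 0.212, adjusted p = 0.0109, edgeR) in PS and -1.01 (SE 0.183, adjusted p = 0.00580, edgeR) in RS. Its PS call ended without KO replicate 3 (-0.93, adjusted p = 0.0543, edgeR). Its RS level was 189, 238 and 236 CPM in controls and 101, 100.4 and 125 in KO. It was the 1 gene called of 21 tested in PS by edgeR and by voom, while DESeq2 called 3 lower, Adcy10 (adjusted p = 0.0203) and Pde4a (0.0270) besides. Both were also called with no filter and with the replicate block. Of 22 tested in RS 5 fell (12.4% of all genes) and 2 rose (18.7% of all genes) by edgeR, and 4 fell and 3 rose by DESeq2. The soluble cyclase gene Adcy10 (-0.82, SE 0.223), Pde4a (-0.74, SE 0.205) and Pde7b (-1.29, SE 0.417) were lower, and the membrane cyclase genes Adcy9 (1.21, SE 0.351) and Adcy3 (0.80, SE 0.240) higher, at adjusted p of 0.0219 to 0.0402 (edgeR). With library size only 1 fell and 4 rose, a setting in which 779 of all 15934 genes fell and 4236 rose. Without the remaining KO library or KO replicate 3, 1 fell and 0 rose, and without the remaining control or control replicate 3 none rose.

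Of 16 tested genes of calmodulin, its kinases and calcineurin, 2 fell in RS, close to the 12.4% of all genes: the kinase gene Camk1g (-1.49, SE 0.261, adjusted p = 0.00533, edgeR) and the testis calcineurin subunit gene Ppp3r2 (-0.60, SE 0.201, adjusted p = 0.0454, edgeR). None rose there by edgeR, DESeq2 or voom (edgeR, 4 higher before adjustment), while 4 rose with library size only and 6 with the replicate block. Of all 15934 genes tested, 4236 rose with library size only and 4582 with the block. Ppp3r2 was called without 1 of the 6 libraries, KO replicate 1. In PS 0 of the 16 were called by edgeR, DESeq2 or voom (edgeR, 1 higher before adjustment).

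**Figure D4:**
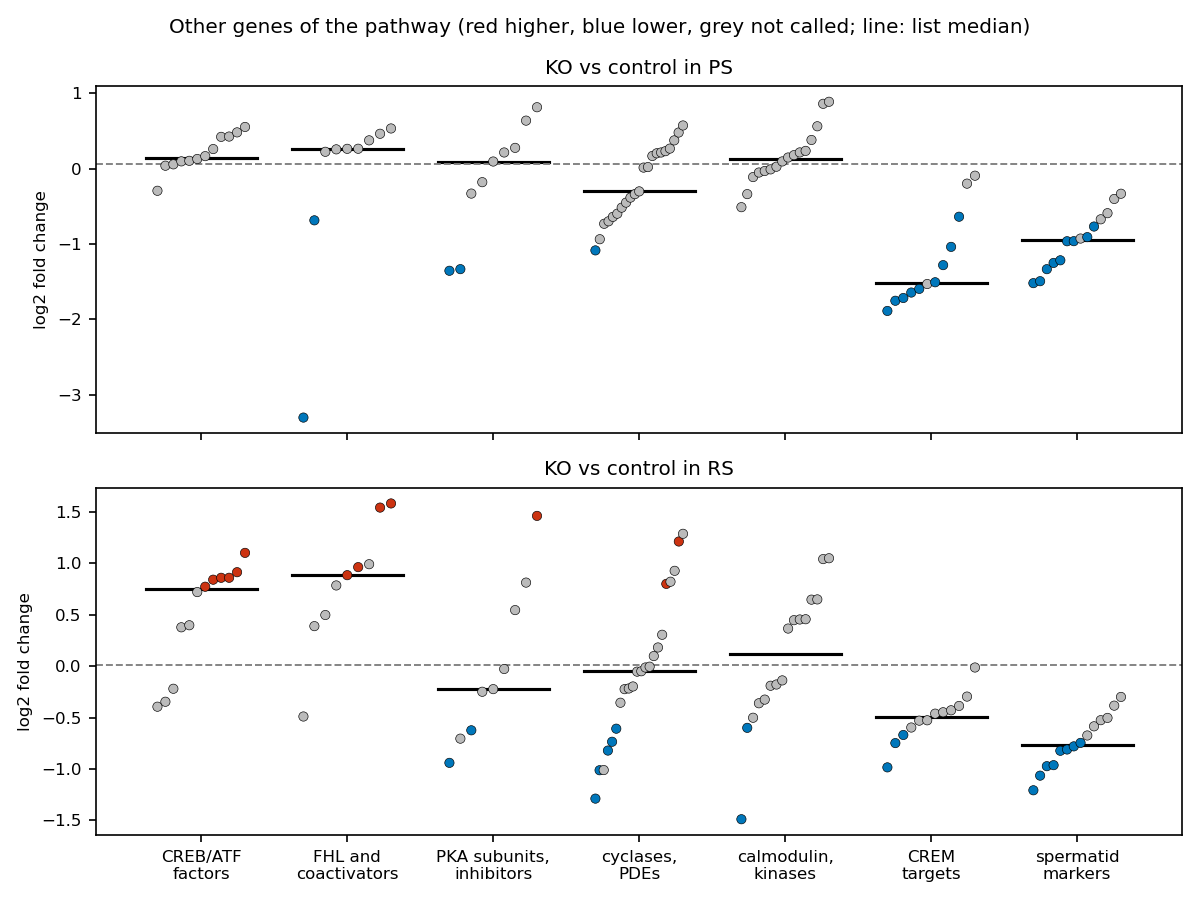
Log2 fold change of KO against control for every tested gene of 5 pathway lists, the CREM targets and the spermatid markers, in PS above and RS below. Red points are called higher and blue points lower (edgeR, adjusted p under 0.05), thick lines are list medians and the dashed line is the median of all genes tested. In RS the CREB/ATF list has 6 red points and no blue ones and the CREM targets have 3 blue points, and the lowest point in PS is Fhl2, with 0 to 3 counts per KO library.

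Genes with the most similar pattern over the 12 libraries were ranked by the root mean square difference of centred log2 CPM, among 11183 genes of at least 5 CPM. For Fhl5 the closest was Ropn1, the sperm fibrous sheath protein ropporin, at 0.09, beside a median of 1.41 over all genes. After it came 4933417A18Rik (0.10), Tmem191c (0.11), 1700023F06Rik (0.11) and Hils1 (0.12), a linker histone of spermatids. Ropn1 was at 66.4, 76.6 and 76.3 CPM in control PS and 31.5, 33.4 and 46.6 in KO PS, and at 300.5, 503 and 354 in control RS and 169.7, 204 and 202 in KO RS. For Crem the closest were Ak8, an adenylate kinase of cilia and flagella (0.09), Cab39l (0.10), Adad1, a testis RNA-binding protein (0.10), Mmadhc (0.10) and Ppp1r42 (0.10), beside a median of 0.69. Ak8 was at 347, 398 and 375 CPM in control RS and 266, 214 and 195 in KO RS. Likeness was computed on the same libraries that the tests used.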

How the data were processed

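The authors deposited raw gene counts in 2 tables, 1 per cell type, from stranded total RNA libraries, made with HISAT2 2.1.0 and HTSeq on mm10, per the submitters' processing notes, which also name DESeq2. The same deposited tables hold the authors' log2 fold changes and adjusted p-values. A further 12 columns of normalized values were left unused. The annotation and the strand setting of the counting were not stated, so reads of Crem, Fhl5 and Camk4 may include those of overlapping genes on the opposite strand.

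In each group a column matched replicate 1, another replicate 3 and another the group alone, called the remaining replicate. The labels give the numbers of replicates 1 and 3 but state no pairing, and the remaining ones were matched by elimination. Deviations from group means correlated at 0.458 to 0.679 between same-numbered libraries within a cell type and at 0.263 to 0.707 across cell types. Between libraries of different number they correlated at -0.631 to -0.0148 and at -0.633 to 0.256. The numbers were therefore taken to pair the libraries in the replicate block. The main tests were fitted without this block, so their p-values do not use the pairing. P-values cover the spread between the deposited libraries.

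The 8 genes and the gene lists were chosen with earlier results of these data known. KO and control were compared within a cell type (6 libraries), and RS with PS and the interaction in 1 fit of 12 libraries. The fits used edgeR 4.0.16 in R 4.3.3 (quasi-likelihood test, TMM, filterByExpr, Benjamini-Hochberg over all genes tested, threshold 0.05). They were also run on simulated counts without replicate effects, which do not cover the pairing seen here. Levels are CPM after TMM scaling over the 12 libraries. Named genes were all 8 members, all CREM targets, up to 6 called genes of each other list by adjusted p, and the 5 genes nearest in pattern to Crem and to Fhl5. Alternatives were RLE size factors, library size only, no filter, DESeq2 1.42.0 (values rounded to 3 digits), limma-voom 3.58.1, the replicate block and leaving out libraries. Coordinates and exon lengths are from GENCODE vM21 (GRCm38) and promoters from RefSeq (GRCm38.p6), with windows for 6 of the 8 members and 10 of the 12 targets.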

Additional observations from a re-analysis of the deposited data

How the results depend on the processing

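Depth limits the low genes: a count of 3 was worth 0.172 to 0.268 CPM. The count of genes called in PS, 826, was 1257 with DESeq2, 3476 with the replicate block and 288 to 1592 without 1 library. In RS 4942 became 8736 with the block, 1546 to 6391 without 1 library and 0 with only the libraries matched to a sample title (edgeR, 2 against 2; 4103 at an unadjusted p under 0.05, and DESeq2 on all 6 called 5512). The interaction, 3 genes, gave 35 with library size only, 6 with no filter, 95 with DESeq2, 1285 with the block, 0 with the matched libraries (1018 at an unadjusted p under 0.05) and 0 to 6 without 1 library.

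Member calls were 1 higher in PS with DESeq2 and with the block, and 0 to 1 higher and 1 to 3 lower without 1 library. In RS they were 3 lower with library size only, 4 lower with no filter, 0 lower and 0 higher with the matched libraries (4 and 1 at an unadjusted p under 0.05), and 3 to 5 lower and 0 to 1 higher without 1 library. Lower calls were 2 with the block in the interaction, and, for RS against PS in KO, 1 with the matched libraries and 1 to 2 without 1 library. No called member changed direction under any of these alternatives. Of the members' values under the alternatives, 630 kept their side of the threshold, 27 lost it and 7 gained it. The block changed no member's call beyond those given above: Atf1 in PS, Crem and Atf1 in the interaction, and Crem in RS against PS in KO.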
